A study of Mus musculus with 186 samples.

Results

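The 7 Grin genes encode the subunits of the N-methyl-D-aspartate (NMDA) receptor, and they were taken by name from a table of 28338 gene symbols, in which all 7 were found. They are Grin1, Grin2a, Grin2b, Grin2c, Grin2d, Grin3a and Grin3b, and they were followed through 186 bulk RNA-seq libraries of mouse brain. The mice were wild-type (WT), Akap11 +/- or Akap11 -/-, and the tissue was taken at 4 weeks (96 libraries) or 12 weeks (90 libraries) of age. Akap11 encodes an anchoring protein that tethers protein kinase A. The regions were the prefrontal cortex, the somatosensory cortex, the hippocampus, the striatum, the thalamus and the substantia nigra (the nigra below), cut from frozen brains in a cryostat. Every combination of region, age and genotype had 5 libraries (30 groups) or 6 libraries (6 groups). How the Akap11 allele was made, the strain and the sex are not given in the labels. The labels do not say that libraries of one group came from separate animals, so p-values measure the spread between these libraries, which may in part be technical.

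The NMDA receptor is a glutamate-gated channel made of 4 subunits. It opens only when glutamate and a co-agonist, glycine or D-serine, are both bound and the membrane is depolarised enough to expel a magnesium ion from the pore. Grin1 encodes the obligatory subunit, which binds the co-agonist. The Grin2 genes encode the glutamate-binding subunits, which set how long the channel stays open, how strongly magnesium blocks it and which scaffolds hold it. In the rodent forebrain the subunit encoded by Grin2b prevails early in life and the one encoded by Grin2a joins it as circuits mature. Grin2c is known mainly from cerebellar granule cells, and Grin2d from the brainstem, the diencephalon and interneurons. Grin3a and Grin3b encode glycine-binding subunits that lower calcium entry and magnesium block.

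The 7 genes share a stretch of the membrane segment named M3, in which all 7 proteins carry the same residues. Its coding bases are compared with those of Grin1, and the divergence of the genes was not estimated. The 21 bases of each gene, read 5′ to 3′ on the coding strand of the GRCm38 (mm10) genome, are given with capitals marking bases that differ from Grin1.
Grin1: tacactgccaacctggcagcc
Grin2a: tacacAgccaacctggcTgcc
Grin2b: tacactgccaacTtAgcCgcc
Grin2c: tacacGgccaaTctggcagcc
Grin2d: taTacAgccaaTctggcTgcc
Grin3a: tacacAgcGaacTtggcTgcT
Grin3b: tacacAgccaacctggcagcT
Every one of these stretches lies within 1 coding exon. The Grin1 stretch is at chr2:25297202-25297222 in exon 15 (minus strand), and those of the Grin2 genes are at chr16:9653450-9653470 in exon 10 of Grin2a, chr6:135772247-135772267 in exon 10 of Grin2b, chr11:115253752-115253772 in exon 11 of Grin2c and chr7:45854282-45854302 in exon 8 of Grin2d, all on the minus strand. The Grin3a stretch is at chr4:49770473-49770493 in exon 3 (minus strand) and the Grin3b stretch at chr10:79974639-79974659 in exon 3 (plus strand). Grin2a, Grin2c and Grin3b differ from Grin1 at 2 of the 21 bases, Grin2b at 3, Grin2d at 4 and Grin3a at 5. Over whole transcripts the genes could be told apart by short reads: 19 of the 21 gene pairs share no run of 31 bases. Grin2b and Grin2c share a run of 34 bases, and Grin2c and Grin2d share a run of 32.

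The genes differ far more in size than in this stretch. Grin1 spans chr2:25291181-25319187 and its longest coding transcript has 4276 bases in 21 exons. Grin2a (chr16:9567898-9995560) and Grin2b (chr6:135713233-136173511) have transcripts of 14634 and 24060 bases, of which 4392 and 4446 are coding, so most of each is untranslated. Grin2c (chr11:115249169-115267243), Grin2d (chr7:45831883-45878378), Grin3a (chr4:49661611-49845744) and Grin3b (chr10:79970715-79977190) have transcripts of 4895, 5431, 7491 and 3283 bases. Annotated genes in the table overlap Grin1 (Grin1os), Grin2b (Gm14329, Gm14330 and Gm26653), Grin2d (Kdelr1) and Grin3b (Tmem259) on the opposite strand, and Ppp3r2 lies inside Grin3a on the same strand. The library kit keeps the strand, but no source used here says whether the counting used it, so reads in these overlaps are uncertain. Levels are given below in counts-per-million (CPM) after TMM scaling, which aligns libraries on the bulk of their genes. Levels of different genes are compared only per kilobase (kb) of transcript or of coding sequence.

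Library totals ran from 20.8 M to 73.3 M estimated counts (mean 46.1 ± 9.60 M, SD, n = 186; M as in CPM). Akap11 itself was lower in Akap11 -/- than in WT in 12 of 12 region and age sets, by a log2 fold change of -4.30 to -3.65, and in Akap11 +/- by -0.99 to -0.69, which passed the test in 10 of 12 sets. Regional markers separated the tissues with few exceptions: striatal projection neuron markers placed 30 of 30 striatal libraries above the rest, dopamine neuron markers 31 of 32 from the nigra and thalamic markers 30 of 31 from the thalamus. In 11 libraries, all of 4 weeks, markers of another region stood out within their group. This set was listed by name and not by a fixed cut-off, and it holds no Akap11 +/- library. The 11 were the libraries numbered 51, 161 and 163 of the Akap11 -/- striatum and 92 of the WT striatum, 913, 914 and 23 of the WT thalamus, 42 and 92 of the WT substantia nigra, and 44 and 91 of the Akap11 -/- substantia nigra. For example, 8 markers of cortical and hippocampal excitatory neurons summed to between 4.75 and 1573 CPM (median 740.4) in the 4-week Akap11 -/- striatum and between 5.27 and 845 CPM (median 12.8) in its WT group.

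A second set of libraries bears directly on Grin1. Estimated counts need not be whole, and in 16 of the 4-week libraries whole numbers made up no more than 5.55% of the non-zero values, whereas the share elsewhere was 17.3% or more. Of the 16, 7 were WT, 5 Akap11 +/- and 4 Akap11 -/-, spread over 10 groups. Within their own groups Grin1 was higher in these libraries than in the rest in 10 of 10 groups, by a median of 0.44 on the log2 scale (range 0.15 to 0.72). In the 4-week WT somatosensory cortex, for instance, they averaged 1237 CPM against 855 ± 18.5 CPM (SD) in the other 3. Their TMM scale factors were 1.09 to 1.32, against 0.895 to 1.08 elsewhere, and with scaling to total counts alone the difference stood in 9 of 10 groups with a median of 0.11. Grin3b was lower in them in 8 of 10 groups (median difference -0.55) and Grin2d in 9 of 10 (median -0.10). The medians of Grin2a, Grin2b, Grin2c and Grin3a lay between -0.12 and 0.10. With scaling to total counts these 4 medians were -0.25, -0.23, -0.24 and -0.39, those of Grin2d and Grin3b were -0.41 and -0.74, and Grin2a was higher in 0 of 10 groups instead of 8. Results at 4 weeks are therefore also given without these libraries, which are drawn as open symbols in the plot of levels by library. In the plots HET stands for Akap11 +/- and KO for Akap11 -/-, PFC and SSC for the prefrontal and somatosensory cortex, and HP, STR, TH and SN for the hippocampus, striatum, thalamus and nigra.

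**Figure D1:**
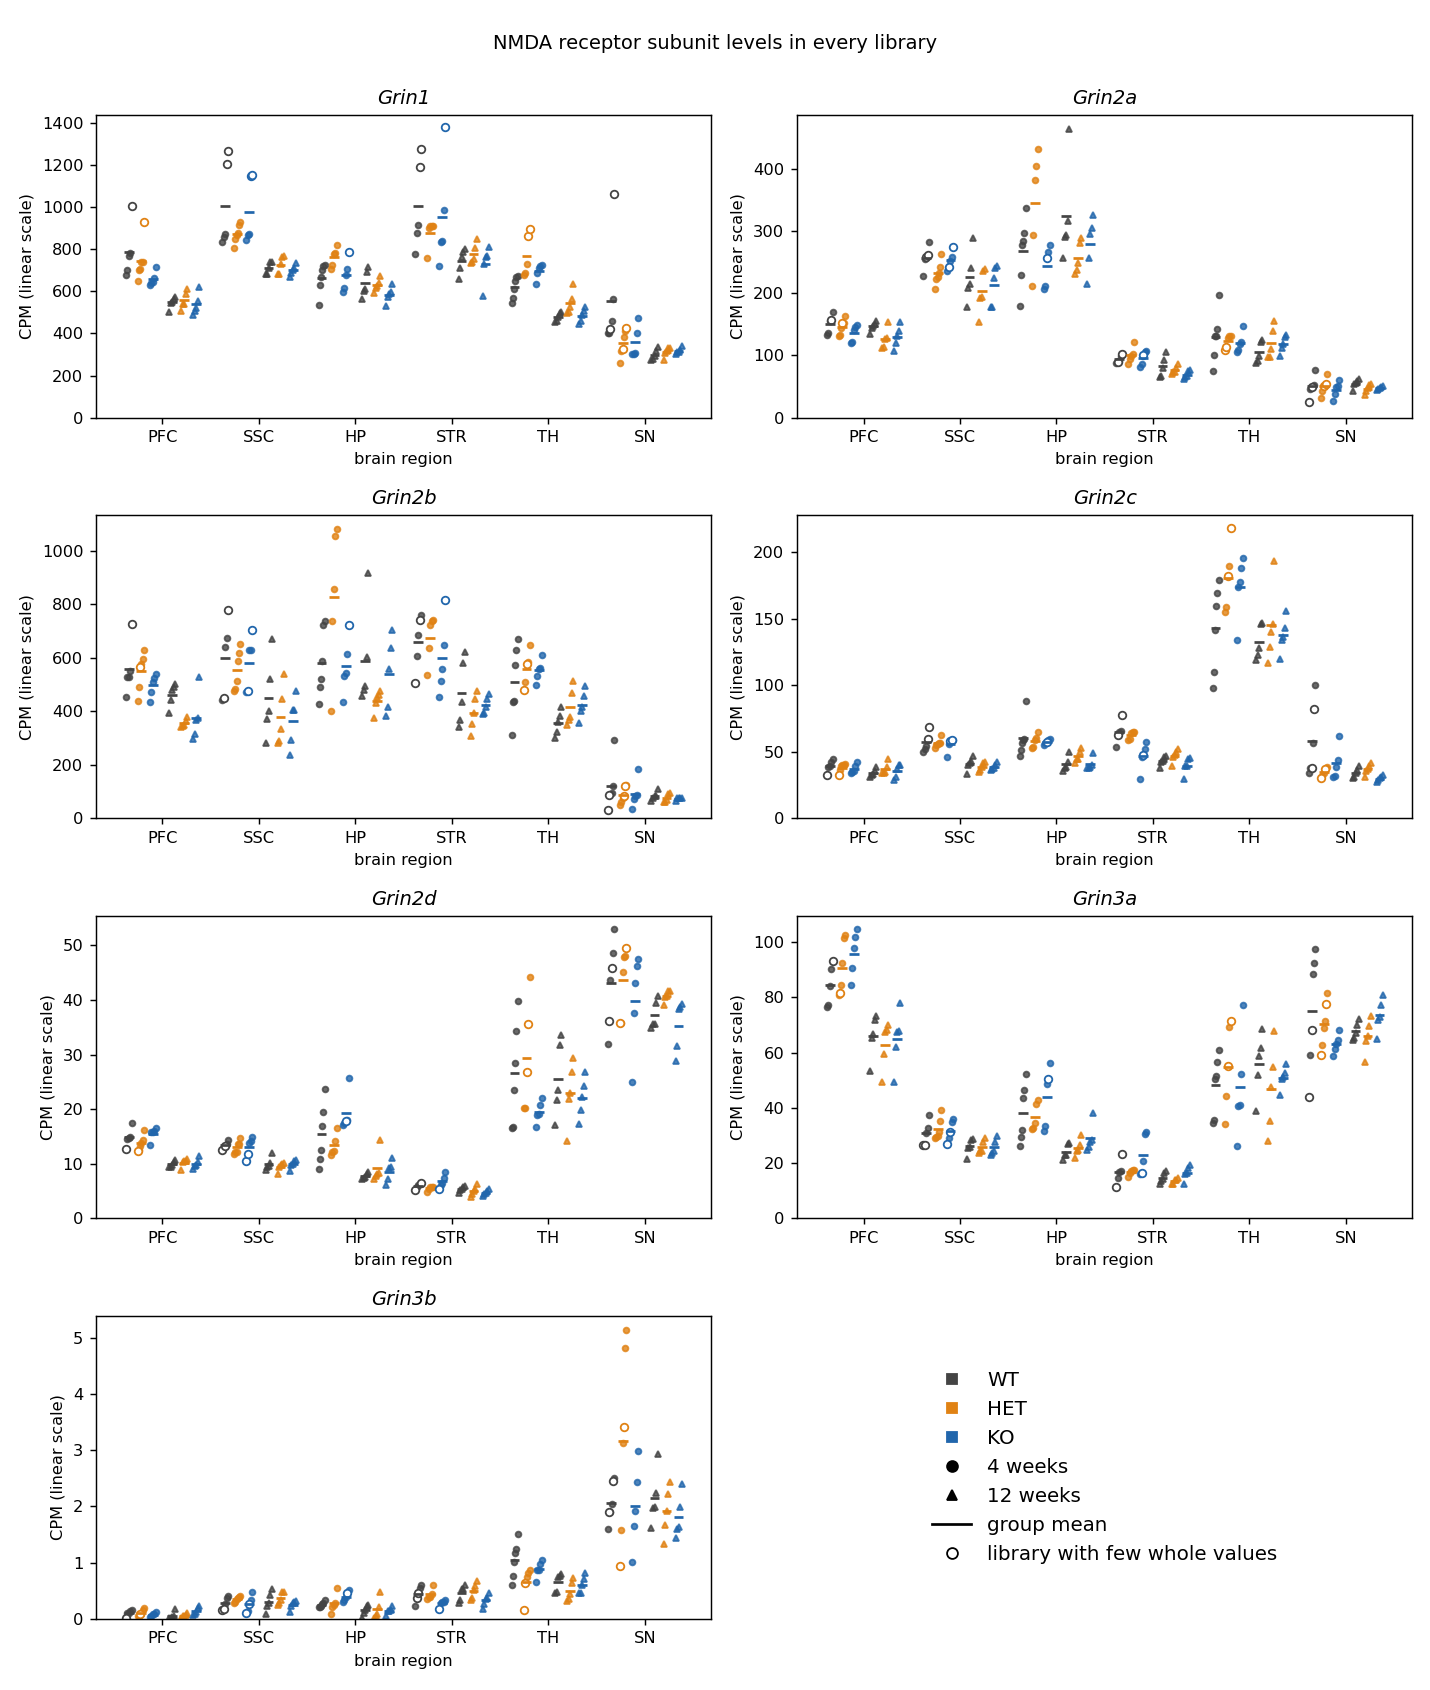
TMM-scaled CPM of each Grin gene (1 panel a gene, y axis) in every library by region (x axis); circles are 4 weeks, triangles 12 weeks, colours the 3 genotypes, bars the group means and open symbols the 16 libraries in which few values are whole numbers. In WT at 12 weeks, group means of Grin2b run from 81.6 CPM (substantia nigra) to 589 CPM (hippocampus). Over all groups they run from 72.7 CPM (12-week Akap11 -/- substantia nigra) to 826 CPM (4-week Akap11 +/- hippocampus). Those of Grin3b run from 0.0550 CPM (12-week Akap11 +/- prefrontal cortex) to 3.17 CPM (4-week Akap11 +/- substantia nigra).

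Grin1, the obligatory subunit, was the most evenly spread member. Its group means over all 36 groups ran from 298 CPM (12-week WT substantia nigra) to 1007 CPM (4-week WT striatum), a 3.38-fold range, and its median coefficient of variation within groups was 8.35%. In the WT striatum at 12 weeks the 5 libraries held 660.1, 712, 765, 785 and 801 CPM. In the WT somatosensory cortex at 12 weeks they held 681, 685, 712, 739 and 741 CPM, which overlaps the striatum. In the substantia nigra at 12 weeks they held 272, 277, 292, 315 and 335 CPM, below every library of the other regions. Relative to the mean of the other 5 regions, Grin1 at 12 weeks was higher in the striatum (log2 difference 0.55 ± 0.05, SE), the somatosensory cortex (0.47 ± 0.05) and the hippocampus (0.27 ± 0.05), and lower in the thalamus (-0.24 ± 0.05) and the substantia nigra (-1.05 ± 0.06). The largest adjusted p of these 5 was 1.70e-04, from edgeR's quasi-likelihood test with Benjamini-Hochberg adjustment over all genes. At 4 weeks the differences were 0.54 ± 0.15 in the striatum, 0.53 ± 0.15 in the somatosensory cortex and -0.58 ± 0.15 in the substantia nigra. Without the libraries in which few values are whole numbers these became 0.40 ± 0.09, 0.40 ± 0.09 and -0.68 ± 0.09, all still called. Without the libraries that carried markers of another region the nigral difference was -0.96 ± 0.13.

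Grin2a, whose subunit gives fast-closing channels, was highest in the hippocampus and the somatosensory cortex. In the WT hippocampus it ranged from 179 to 337 CPM at 4 weeks (median 280.1, n = 6), and at 12 weeks the 5 libraries held 256, 289, 293, 317 and 464 CPM. The somatosensory cortex had 227, 254, 258, 262 and 283 CPM at 4 weeks and 178, 208, 214, 241 and 288 CPM at 12 weeks. The substantia nigra was lowest, with 25.3 to 76.7 CPM at 4 weeks (median 50.0) and 42.1, 54.7, 55.3, 58.3 and 62.5 CPM at 12 weeks. Relative to the mean of the other regions the 12-week differences were 1.57 ± 0.10 in the hippocampus, 0.96 ± 0.11 in the somatosensory cortex, -0.79 ± 0.12 in the striatum, -0.40 ± 0.12 in the thalamus and -1.52 ± 0.13 in the substantia nigra. All 5 passed the test, and the prefrontal cortex (0.18 ± 0.11) did not. The order of the 12-week means was hippocampus, somatosensory cortex, prefrontal cortex, thalamus, striatum, substantia nigra, and each neighbour in it differed from the next (adjusted p from 6.52e-04 to 0.0496). The difference between the thalamus and the striatum was the weakest of these and lost its call in 26 of 34 alternatives, including DESeq2 and 23 that left out 1 library (largest adjusted p 0.151). At 4 weeks the hippocampus and the somatosensory cortex did not differ beyond their spread (0.03 ± 0.20), nor did the prefrontal cortex and the thalamus (0.20 ± 0.20).

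Grin2b, whose subunit gives slow-closing channels and docks the calcium and calmodulin dependent kinase CaMKII, was high in 5 regions and low in the substantia nigra. The 4-week WT striatum held 506, 607, 685, 741 and 759.5 CPM. The 4-week WT substantia nigra held 31.3 to 291 CPM (median 90.8, n = 6), and at 12 weeks 63.7, 73.0, 80.9, 82.1 and 108 CPM. At both ages all nigral libraries lay below all libraries of the thalamus, the next lowest region, with a log2 difference between these regions of 2.12 ± 0.31 at 4 weeks and 2.12 ± 0.21 at 12 weeks (adjusted p 9.69e-06 and 7.51e-10). Among the other 5 regions no neighbours in the order of means differed at either age (smallest adjusted p 0.126). The highest nigral library at 4 weeks, number 42, is also the one with the lowest dopamine neuron markers of its region and thalamic markers above those of 1 thalamic library. Without the 11 libraries that carried markers of another region, Grin2b in the 4-week nigra was lower than the mean of the other regions by -2.65 ± 0.18, against -2.31 ± 0.28 with them.

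Grin2c, whose subunit gives channels with weak magnesium block, was highest in the thalamus. The thalamic WT libraries held 98.1 to 179 CPM at 4 weeks (median 151, n = 6) and 119, 123, 128, 146 and 147 CPM at 12 weeks. Every one of them lay above all striatal libraries, the next region in the order of means, which held 53.5, 62.3, 65.1, 65.5 and 77.5 CPM at 4 weeks and 37.4, 42.2, 42.6, 45.7 and 46.8 CPM at 12 weeks. The thalamus exceeded the striatum by a log2 difference of 1.12 ± 0.22 at 4 weeks (adjusted p 9.37e-05) and 1.61 ± 0.09 at 12 weeks (adjusted p 3.18e-15). At 12 weeks the striatum, the somatosensory cortex and the hippocampus did not differ from their neighbours (0.08 ± 0.09 and 0.01 ± 0.09), and neither did the substantia nigra and the prefrontal cortex (0.02 ± 0.09). In the 4-week nigra Grin2c stood at -0.22 ± 0.17 against the mean of the other regions, and at -0.75 ± 0.14 (adjusted p 3.35e-05) without the libraries that carried markers of another region.

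Grin2d, whose subunit gives the slowest-closing channels, was highest in the substantia nigra and second in the thalamus. The nigra held 31.9 to 53.0 CPM at 4 weeks (median 44.8, n = 6) and 34.8, 35.6, 35.6, 39.5 and 40.8 CPM at 12 weeks. The thalamus held 16.6 to 39.7 CPM at 4 weeks (median 26.1) and 17.1, 21.8, 23.6, 31.8 and 33.6 CPM at 12 weeks, so the regions overlapped at 4 weeks and not at 12. The difference between them was 0.67 ± 0.19 at 4 weeks and 0.55 ± 0.12 at 12 weeks (adjusted p 0.00972 and 2.48e-04). The striatum was lowest, at 5.23 to 6.48 CPM at 4 weeks and 4.66 to 5.89 CPM at 12 weeks, and was below the mean of the other regions by -1.75 ± 0.19 and -1.46 ± 0.11.

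Grin3a followed Grin2d in being low in the striatum and high in the nigra, but it was as high in the prefrontal cortex. The prefrontal WT libraries held 76.5, 77.2, 84.1, 90.4 and 93.1 CPM at 4 weeks and 53.4, 65.2, 66.6, 71.6 and 73.4 CPM at 12 weeks. The nigral libraries held 44.0 to 97.6 CPM (median 78.2, n = 6) and 64.4, 65.1, 66.9, 70.1 and 72.0 CPM. The prefrontal cortex and the nigra did not differ beyond their spread at either age (0.19 ± 0.20 at 4 weeks; the nigra higher by 0.04 ± 0.11 at 12 weeks). The striatum held 11.5 to 23.3 CPM at 4 weeks and 12.6 to 17.0 CPM at 12 weeks, the lowest region at both ages. The cortical regions had opposite signs against the mean of the other regions: 1.02 ± 0.08 in the prefrontal and -0.57 ± 0.09 in the somatosensory cortex at 12 weeks.

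Grin3b was by far the least abundant member and its counts were few. In the nigra it held 1.59 to 2.51 CPM at 4 weeks (median 1.97, n = 6) and 1.61, 1.97, 1.98, 2.24 and 2.93 CPM at 12 weeks, above all libraries of the thalamus at both ages (medians of 1.09 CPM at 4 weeks and 0.740 CPM at 12 weeks). In the prefrontal cortex it held 0.0208 to 0.153 CPM at 4 weeks and 0.0139 to 0.170 CPM at 12 weeks, and there it did not pass the filter on low counts for the comparisons of genotype and age. Its nigral excess over the mean of the other regions was 2.64 ± 0.18 at 4 weeks and 3.15 ± 0.26 at 12 weeks. Its median coefficient of variation within groups was 33.1%, against 8.35% to 18.6% for the other members, so its differences are the least precise.

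**Figure D2:**
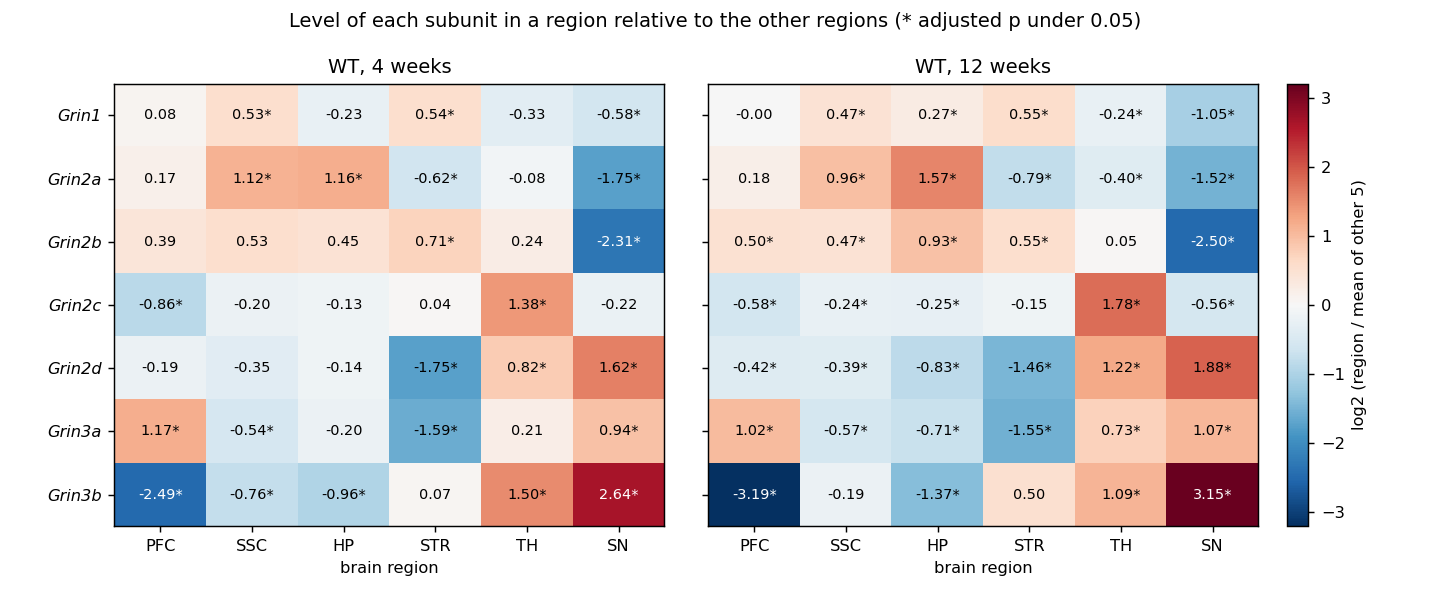
Log2 difference between each region (x axis) and the mean of the other 5 in WT for each Grin gene (y axis), at 4 weeks (left) and 12 weeks (right); colour gives the difference and an asterisk an adjusted p under 0.05. Each gene has its own pattern, such as Grin2c at 1.38 and 1.78 in the thalamus and Grin2d at 1.62 and 1.88 in the substantia nigra.

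Over the 7 genes and 6 regions, 23 of 42 differences from the mean of the other regions were called at 4 weeks (12 higher, 11 lower) and 36 of 42 at 12 weeks (17 higher, 19 lower). Of all genes tested, 46.3% (24.2% higher, 22.1% lower) and 61.6% (31.3% higher, 30.3% lower) were called in the same comparisons, so region calls were common among all genes as well. The map of differences by region shows that the pattern was shared by both ages: 22 differences were called at both, and all 22 had the same sign. Between pairs of regions 69 of 105 tests were called at 4 weeks and 84 of 105 at 12 weeks, against 45.6% and 61.1% of all genes. The same library numbers recur across regions, and these tests treated the libraries as independent. With the number as a block, 69 and 85 tests were called. Grin2b had the fewest called pairs (5 and 6 of 15). These were the 5 pairs with the nigra at each age and, at 12 weeks, the hippocampus over the thalamus (0.74 ± 0.20, adjusted p 0.00194). Grin2a had the most at 12 weeks (15 of 15). Without the libraries in which few values are whole numbers, the 4-week differences of Grin3a (-0.45 ± 0.18, adjusted p 0.0543) and Grin3b (-0.51 ± 0.26, adjusted p 0.129) in the somatosensory cortex were no longer called. Leaving out library 142 or 914 of that group alone also ended the call of Grin3b. At 12 weeks leaving out library 2 of the somatosensory cortex ended the calls of Grin2b and Grin2c there (adjusted p 0.126 and 0.0541).

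The make-up of the Grin2 message was compared per kb of the longest coding transcript. In the 4-week WT prefrontal cortex Grin2b made up 52.1 ± 4.80% (SD, n = 5) of the summed Grin2 level, Grin2a 23.2 ± 1.75%, Grin2c 18.4 ± 3.05% and Grin2d 6.27 ± 1.07%. The striatum leaned further to Grin2b, with 56.8 ± 3.32% at 4 weeks and 55.2 ± 4.67% at 12 weeks, and had little Grin2d (2.32 ± 0.452% and 2.94 ± 0.744%), as did the 12-week hippocampus (2.64 ± 0.534%). The hippocampus had the largest share of Grin2a, 39.2 ± 2.11% at 12 weeks beside 42.8 ± 4.27% of Grin2b. The thalamus was led by Grin2c, with 45.8 ± 7.88% at 4 weeks (n = 6) and 50.4 ± 3.48% at 12 weeks. In the 12-week nigra Grin2c (33.3 ± 2.56%) and Grin2d (32.8 ± 2.33%) together held most of the sum, with Grin2a at 17.7 ± 1.67% and Grin2b at 16.1 ± 2.63%. These shares depend on the length used. Per coding kb, which takes no account of the long untranslated part of Grin2a and Grin2b, Grin2b led in every region: its 12-week share was 54.7 ± 4.25% in the thalamus, where Grin2c held 24.6 ± 3.46%, and 36.9 ± 3.80% in the nigra, where Grin2d held 19.2 ± 2.18%.

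Grin1 exceeded the other 6 genes together in every region by this measure per transcript kb. At 12 weeks the ratio of Grin1 to their sum was 4.80 ± 0.657 in the striatum, 3.58 ± 0.692 in the somatosensory cortex, 2.75 ± 0.291 in the prefrontal cortex, 2.55 ± 0.334 in the hippocampus, 2.27 ± 0.124 in the nigra and 1.82 ± 0.0871 in the thalamus. Per coding kb the striatal ratio was still the highest (1.89 ± 0.356), but the thalamus (1.02 ± 0.0863) then no longer lay below the hippocampus. In bulk tissue, fewer cells of a type and less RNA in each cell cannot be told apart, so these are proportions of the tissue and not of any cell.

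The ratio of Grin2a to Grin2b within a library needs no scaling between libraries. It was taken as the log2 of (Grin2a count + 1) over (Grin2b count + 1), not per length. In the WT striatum it was -2.81 ± 0.175 (SD, n = 5) at 4 weeks and -2.49 ± 0.144 at 12 weeks, the lowest of the regions. In the WT hippocampus it was -1.12 ± 0.169 (n = 6) and -0.84 ± 0.177, and in the prefrontal cortex -1.88 ± 0.208 and -1.65 ± 0.180. The nigra had the highest 12-week value (-0.57 ± 0.165) and the widest 4-week spread (SD 0.563, n = 6). The ratio was higher at 12 than at 4 weeks in 6 of 6 regions, by 0.22 to 0.43. A 2-sided exact permutation test gave p = 0.0159 in the striatum and p = 0.0303 in the hippocampus, both 0.0909 after Benjamini-Hochberg adjustment over the 6 regions, and none of the 6 passed. The libraries of both ages overlapped in every region. The smallest p these groups allow is 0.00794 for 5 against 5 and 0.00433 for 5 against 6. Leaving out 1 library raised the number of regions that passed to 2 in 4 cases: library 42 of the hippocampus, 23 of the prefrontal cortex or 92 of the nigra at 4 weeks, or library 4 of the thalamus at 12 weeks. Between genotypes 0 of 24 comparisons with WT passed (smallest exact p = 0.0433, adjusted p = 0.800, for Akap11 -/- in the 4-week thalamus).

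**Figure D3:**
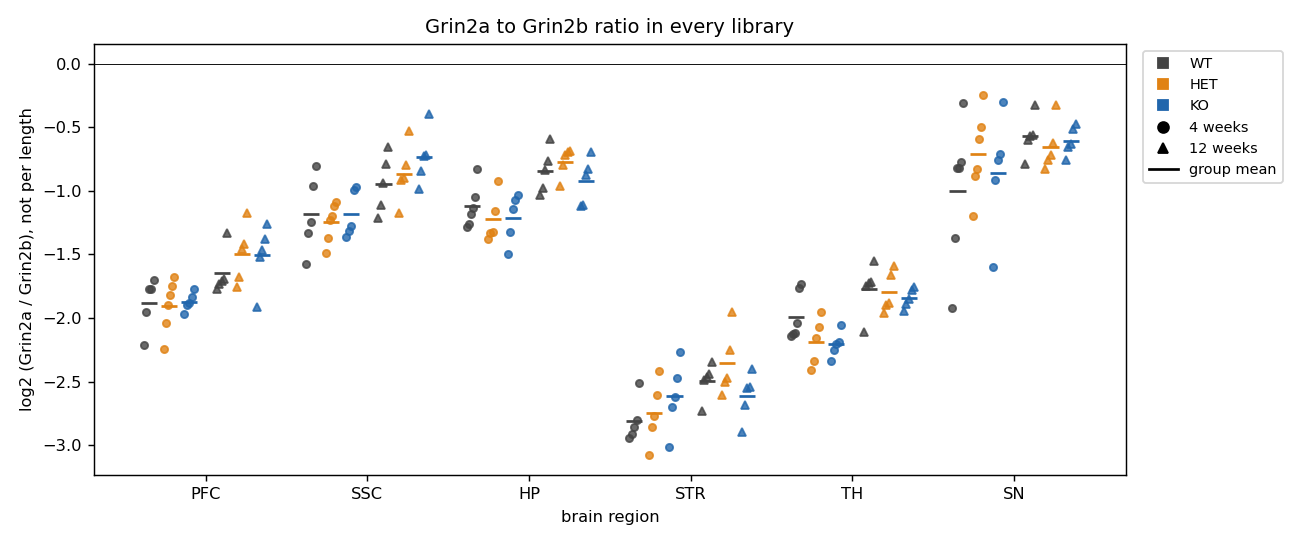
Log2 ratio of Grin2a to Grin2b CPM (y axis) in each library by region (x axis); circles are 4 weeks, triangles 12 weeks, colours the 3 genotypes and bars the group means. The striatum lies lowest (WT means -2.81 and -2.49), and the genotypes overlap in each region.

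In the comparisons of age below, a fall means a lower level at 12 weeks than at 4 weeks. The ages are different animals and may be different batches, so age and batch cannot be told apart here. All libraries with few whole-number values and all that carried markers of another region were of 4 weeks. In WT, 16 of 41 tests were called and all 16 were lower at 12 weeks. Over all genes 20.6% were called, 9.21% higher and 11.4% lower. Of the 41 differences 34 were negative, with a median of -0.31, beside medians over all genes of -0.02 to 0.02 in the regions. The 41 share libraries and are not independent. The calls were 5 of 6 regions for Grin1, 4 of 6 for Grin2c, 3 of 6 for Grin2d, 2 of 6 for Grin2b and for Grin3a, and none for Grin2a (6 regions) or Grin3b (5 regions). With the age differences of the 3 genotypes averaged, 28 of 41 were called, again all lower at 12 weeks, beside 42.2% of all genes.

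Grin1 fell in 5 regions. In the prefrontal cortex the WT libraries held 679, 702, 769, 784 and 1008 CPM at 4 weeks and 502, 543, 551, 566 and 575 CPM at 12 weeks, so the ages did not overlap. The highest value is that of the library with few whole-number values. The log2 difference was -0.52 ± 0.09 (adjusted p 2.67e-04), and -0.42 ± 0.06 without that library (adjusted p 4.24e-05). In the somatosensory cortex the 4-week libraries held 834, 859, 871, 1207 and 1267 CPM, the last 2 being libraries of that kind. The difference there was -0.49 ± 0.10 (adjusted p 5.53e-04) and shrank to -0.25 ± 0.05 without them (adjusted p 6.49e-04). In the thalamus, which had no such WT library, the difference was -0.38 ± 0.08 (adjusted p 8.92e-04), from 543 to 674 CPM at 4 weeks to 454 to 503 CPM at 12 weeks. In the nigra it was -0.90 ± 0.19 (adjusted p 0.00139), and -0.61 ± 0.13 without libraries 914 and 92 (adjusted p 0.00148). Leaving out library 92 alone, which stood at 1063 CPM, brought it to -0.59. It was -0.50 ± 0.10 (adjusted p 7.25e-04) without the libraries that carried markers of another region. In the striatum it was -0.41 ± 0.13 (adjusted p 0.0305) but -0.20 ± 0.09 (adjusted p 0.190) without libraries 92 and 914. Leaving out either of these, or library 3 or 5 of 12 weeks, also ended the striatal call (adjusted p 0.0623 to 0.124). The hippocampus (-0.06 ± 0.08) showed no difference beyond its spread.

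Grin2d and Grin3a fell together in the hippocampus and the prefrontal cortex. Grin2d in the hippocampus held 9.02 to 23.6 CPM at 4 weeks (median 14.7, n = 6) and 7.29, 7.37, 7.65, 8.18 and 8.45 CPM at 12 weeks, a difference of -0.98 ± 0.20 (adjusted p 0.00110). It fell by 0.58 on the log2 scale in the prefrontal cortex (SE 0.08, adjusted p 2.04e-05) and by 0.42 in the somatosensory cortex (SE 0.09, adjusted p 8.59e-04), and no 12-week library overlapped a 4-week one in any of the 3 regions. Of all genes, 6.61% were lower without overlap in the same comparisons. Grin3a in the hippocampus held 26.0 to 52.1 CPM at 4 weeks (median 37.8, n = 6). At 12 weeks it held 21.1, 22.8, 22.8, 26.8 and 27.2 CPM (-0.67 ± 0.16, adjusted p 0.00491). In the prefrontal cortex its difference was -0.35 ± 0.11 (adjusted p 0.0205). That call was lost without library 914 of 4 weeks (-0.31, adjusted p 0.0502) or library 2 of 12 weeks (-0.29, adjusted p 0.0637). Of the 4-week WT hippocampal libraries, 913, 23 and 914 held 43.7 to 52.1 CPM of Grin3a. The others held 26.0 to 31.9 CPM. Slc17a6, a gene of glutamate release and uptake, was also lower in the 12-week WT hippocampus (-2.17 ± 0.66, edgeR adjusted p 0.0228). No hippocampal library was among those listed for markers of another region. The part of other tissue in these hippocampal falls was not tested.

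Grin2c fell in the striatum (-0.56 ± 0.12, adjusted p 0.00156), the hippocampus (-0.56 ± 0.11, adjusted p 7.77e-04), the somatosensory cortex (-0.47 ± 0.08, adjusted p 1.21e-04) and the nigra (-0.77 ± 0.21, adjusted p 0.0111). In the striatum and the somatosensory cortex the ages did not overlap. The nigral fall was -0.27 ± 0.11 (adjusted p 0.107) without the libraries that carried markers of another region, a fit in which Grin2d (-0.36 ± 0.09, adjusted p 0.00701) and Grin3a (-0.36 ± 0.09, adjusted p 0.00769) were called in the nigra. In the thalamus, where Grin2c was most abundant, the difference was -0.11 and was not called. The part of other tissue in the hippocampal fall of Grin2c was not tested either.

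Grin2b fell in the thalamus (-0.52 ± 0.14, adjusted p 0.00875), from 311 to 671 CPM (median 504, n = 6) to 301, 323, 359, 380 and 416 CPM. Its striatal difference (-0.47 ± 0.16, adjusted p 0.0394) lost its call when any one of libraries 42, 142 and 914 of 4 weeks or 1, 3 and 5 of 12 weeks was left out (adjusted p 0.0646 to 0.119). Grin2a, by contrast, ranged from -0.31 in the thalamus to 0.28 ± 0.17 in the hippocampus, where its mean was higher at 12 weeks (324 ± 81.4 against 267 ± 55.3 CPM) without passing the test (adjusted p 0.268).

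Other markers moved with age as well. The summed level of 8 oligodendrocyte markers in WT was lower at 12 weeks, with group medians of 17114 and 6236 CPM in the striatum, 29813 and 12927 CPM in the nigra and 10648 and 4525 CPM in the hippocampus, and their part in the Grin differences was not tested. Long transcripts also shifted against short ones between libraries. To measure the shift, the log2 CPM of each gene was centred on its mean in the region. The shift of a library was the median over 855 genes with transcripts of at least 8000 bases minus the median over 3100 genes of at most 2000 bases. Its WT mean was higher at 4 than at 12 weeks in the striatum (0.10 and -0.11), the prefrontal cortex (0.10 and -0.11) and the hippocampus (0.08 and -0.09), and lower in the nigra (-0.20 and 0.04), where 1 of the 6 WT libraries of 4 weeks stood at -2.02. With this shift as a covariate, an alternative chosen after seeing the data, 15 tests were called, and 21.5% of those over all genes. Of the 15, 13 were lower at 12 weeks and 2 were higher, namely Grin2a (0.61 ± 0.13, adjusted p 0.00132) and Grin2b (0.46 ± 0.14, adjusted p 0.0230) in the hippocampus. The falls of Grin2b in the striatum (-0.10 ± 0.19) and thalamus (-0.19 ± 0.15) and of Grin3a in the prefrontal cortex (-0.11 ± 0.10) were not called in that fit. Grin1, Grin2c and Grin2d kept all their calls in it.

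**Figure D4:**
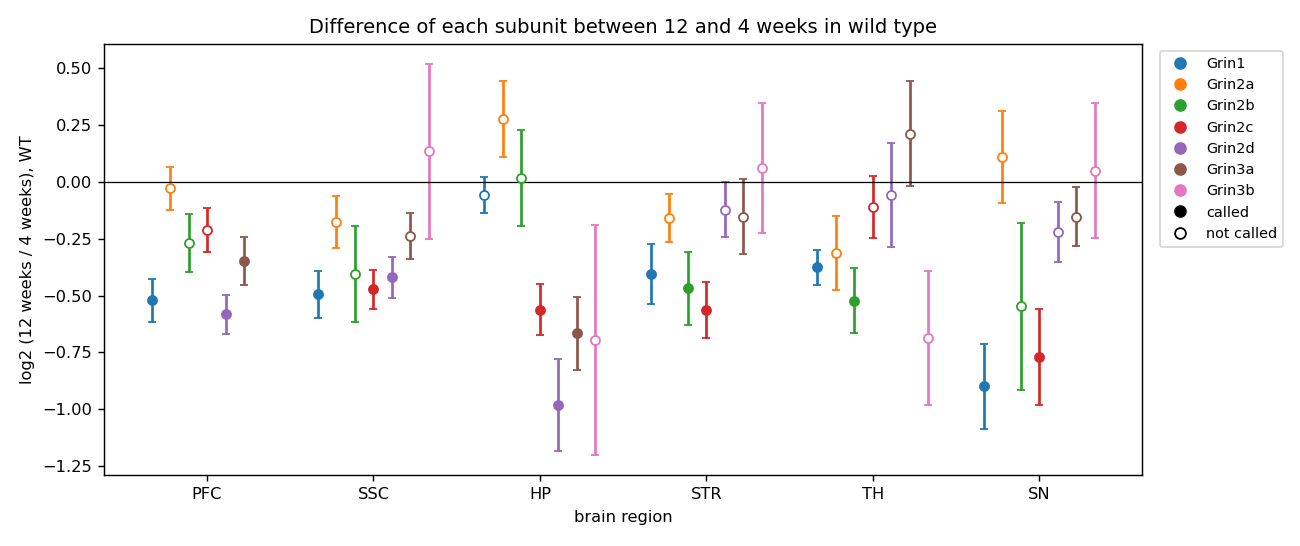
Log2 difference between 12 and 4 weeks in WT (y axis) by region (x axis), with colours for the Grin genes and bars for 1 standard error; filled points have an adjusted p under 0.05. All 16 filled points lie below 0, and Grin2a has none.

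The libraries themselves also differed in this shift within each region and age. Over the libraries of a set (15 to 17), Grin2a followed it with a median Pearson r of 0.667 (range -0.42 to 0.785 over 12 sets). With a permutation test and Benjamini-Hochberg adjustment over 72 relations, 7 of the 12 passed by Pearson's r and 2 by Spearman's rho. Grin2b had a median r of 0.582 (range 0.18 to 0.831), with 5 and 1 sets passing. For Grin1 the median was -0.29 and 2 sets passed. With the 2 libraries farthest from the median left out, r ranged from -0.07 to 0.744 for Grin2a and from -0.10 to 0.734 for Grin2b. Both low ends were prefrontal sets that had not passed (-0.42 for Grin2a at 12 weeks and 0.18 for Grin2b at 4 weeks over all libraries). In the sets that passed by Pearson's r, the lowest values left were 0.454 for Grin2a and 0.314 for Grin2b. Both were in the 4-week nigra, where r over all libraries was 0.672 and 0.628. Both genes have transcripts over 8000 bases, and the part of library quality in their spread was not tested.

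Between genotypes no Grin gene passed the test in any region at either age. Of 82 tests in each contrast, 0 were called for Akap11 -/- against WT, 0 for Akap11 +/- against WT and 0 for Akap11 -/- against Akap11 +/-, with edgeR's quasi-likelihood test. Of all genes 0.644%, 0.00521% and 0.711% were called in these contrasts. At an unadjusted p under 0.05 there were 11, 13 and 14 member tests (13.4%, 15.9% and 17.1%, against 8.73%, 5.39% and 8.01% of all genes), and DESeq2 called 1 in each contrast (1.3%, 0.173% and 1.49% of all genes). Leaving Grin3b aside, the median absolute log2 difference was 0.131 for Akap11 -/- against WT and 0.113 for Akap11 +/- against WT, beside median standard errors of 0.119 and 0.118. The differences of Akap11 -/- from WT were negative in 58 of the 82 tests, beside medians over all genes of -0.02 to 0.01 in the sets. These 82 tests share libraries and are not independent, and the share of negative differences over all genes is not given here.

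**Figure D5:**
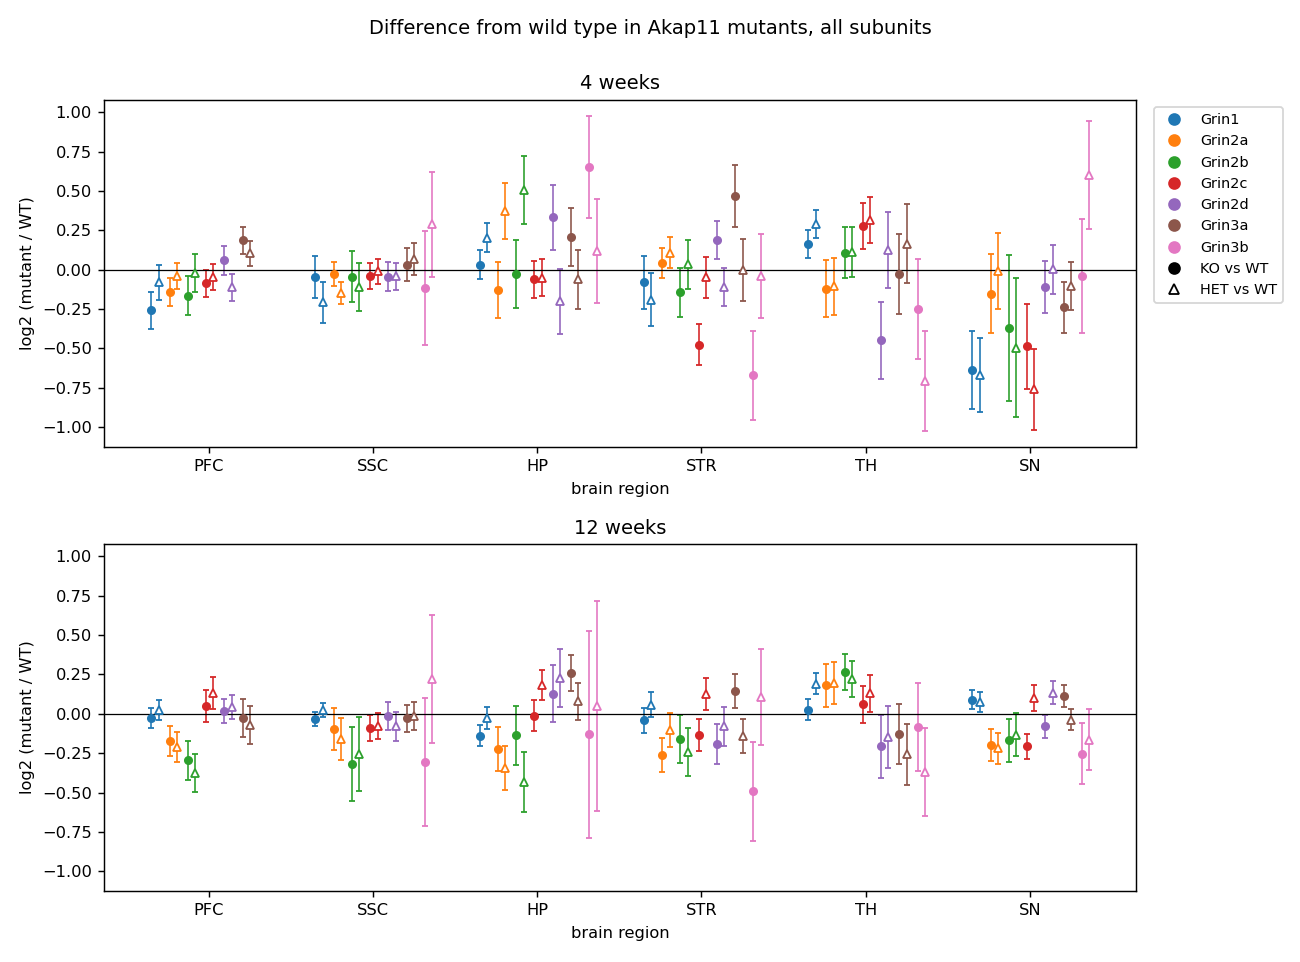
Log2 difference from WT (y axis) by region (x axis) at 4 weeks (upper panel) and 12 weeks (lower panel), with colours for the Grin genes and bars for 1 standard error; filled circles are Akap11 -/- and open triangles Akap11 +/-. None passed an adjusted p of 0.05; the largest departures without Grin3b are -0.64 for Akap11 -/- and -0.76 for Akap11 +/-, both in the 4-week substantia nigra.

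The intervals show what size of difference the libraries leave room for. For Grin1 in the 12-week striatum the WT libraries held 660.1, 712, 765, 785 and 801 CPM, the Akap11 +/- libraries 733, 738, 753, 805 and 848 CPM and the Akap11 -/- libraries 579, 728, 765, 767 and 812 CPM. The groups overlap throughout, and the difference of Akap11 -/- from WT was -0.04 with a range of 2 standard errors from -0.20 to 0.11. In the 12-week somatosensory cortex the same range was -0.12 to 0.06, and in the 12-week prefrontal cortex -0.16 to 0.10. For Grin2b in the 12-week striatum it was wider, -0.46 to 0.14, and for Grin2a there it was -0.48 to -0.05 (difference -0.26 ± 0.11, adjusted p 0.227). The 12-week striatal Grin2a libraries held 65.8, 66.7, 80.0, 93.3 and 105 CPM in WT and 62.6, 64.5, 67.0, 74.4 and 76.3 CPM in Akap11 -/-, which overlap.

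The smallest adjusted p belonged to Grin2c in the 4-week striatum. The WT libraries held 53.5, 62.3, 65.1, 65.5 and 77.5 CPM, the Akap11 +/- libraries 59.1, 59.3, 63.9, 64.4 and 65.0 CPM and the Akap11 -/- libraries 29.4, 46.3, 47.6, 52.3 and 57.0 CPM. All Akap11 -/- libraries lay below all Akap11 +/- libraries, and 1 pair of libraries kept the Akap11 -/- and WT groups from separating. The difference from WT was -0.48 ± 0.13 (adjusted p 0.0631) and from Akap11 +/- -0.43 ± 0.13 (adjusted p 0.0805). DESeq2 called both (adjusted p 0.0189 and 0.0403). The difference from WT was also called without the libraries that carried markers of another region (-0.49 ± 0.11, adjusted p 0.0296) and without library 163 of Akap11 -/- (-0.56 ± 0.13, adjusted p 0.0391). The first of these fits keeps only libraries 12 and 932 of Akap11 -/-, and library 12 has few whole-number values. The difference from WT was not called without the libraries in which few values are whole numbers (-0.41 ± 0.16, adjusted p 0.154). At 12 weeks the difference from WT was -0.13 ± 0.10, and the difference between the striatum and the other regions in the Akap11 -/- effect at 4 weeks was -0.39 ± 0.19 (adjusted p 0.316).

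Grin3a in the 4-week striatum had the opposite sign. The WT libraries held 11.5, 14.7, 16.9, 17.2 and 23.3 CPM and the Akap11 -/- libraries 16.05, 16.6, 20.7, 30.7 and 31.2 CPM, a difference of 0.47 ± 0.20 (adjusted p 0.222). The 3 highest Akap11 -/- libraries are those with the raised excitatory neuron markers, and so is the highest WT library. Without them the difference was 0.10 ± 0.13 (adjusted p 0.742), in a fit that keeps only libraries 12 and 932 of Akap11 -/-. Grin3b there was 0.278 ± 0.0592 CPM in Akap11 -/- against 0.445 ± 0.150 CPM in WT (-0.67 ± 0.28, adjusted p 0.222). Against Akap11 +/-, Grin2d (0.37 ± 0.11, adjusted p 0.0450) and Grin3a (0.56 ± 0.16, adjusted p 0.0421) were called in the 4-week striatum of Akap11 -/- only without the libraries in which few values are whole numbers. That fit drops library 12 of Akap11 -/- and keeps 51, 161 and 163 with their raised excitatory neuron markers. The part of these markers was not tested. At 12 weeks, leaving out library 4 of Akap11 -/- gave a call of Grin3a against Akap11 +/- (0.37 ± 0.09, adjusted p 0.0423).

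In the 4-week substantia nigra the differences moved with the libraries included. Grin1 was lower than in WT by -0.64 ± 0.25 in Akap11 -/- (adjusted p 0.643) and by -0.67 ± 0.24 in Akap11 +/- (adjusted p 0.548). The WT libraries ranged from 401 to 1063 CPM (median 440.0), and the next highest was 563 CPM. The Akap11 -/- libraries held 301, 303, 306, 403 and 472 CPM. The library at 1063 CPM, number 92, is both one with few whole-number values and one with markers of another region. Without the libraries that carried markers of another region the differences were -0.45 ± 0.15 and -0.25 ± 0.12. Grin2c in Akap11 +/- went from -0.76 ± 0.26 to -0.24 ± 0.13 in the same fit. Grin3a moved the other way, from -0.24 ± 0.16 to -0.49 ± 0.13 in Akap11 -/- (adjusted p 0.440) and from -0.10 ± 0.15 to -0.30 ± 0.11 in Akap11 +/- (adjusted p 0.656). None of these was called. At 12 weeks the Grin1 difference of Akap11 -/- from WT in the nigra was 0.09 ± 0.06.

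Between Akap11 +/- and WT 2 of the 82 comparisons had groups that did not overlap, against 0.494% of all genes (0.274% higher, 0.219% lower). Grin1 in the 4-week thalamus was higher, with 676, 688, 729, 863 and 895 CPM in Akap11 +/- against 543 to 674 CPM in WT (0.29 ± 0.09, adjusted p 0.209). The highest 2 are libraries with few whole-number values, and without them the difference was 0.15 ± 0.08 (adjusted p 0.798). DESeq2 called the difference over all libraries (0.31 ± 0.09, adjusted p 0.0358). Grin2b in the 12-week prefrontal cortex was lower, with 339, 346, 349, 363 and 379 CPM in Akap11 +/- against 391, 441, 478, 492 and 502 CPM in WT (-0.38 ± 0.12, adjusted p 1.00). Akap11 -/- against Akap11 +/- had 3 such comparisons, against 1.84% of all genes (0.921% higher, 0.918% lower): Grin2c and Grin3b lower in the 4-week striatum and Grin2d higher in the 4-week hippocampus. The Grin2d libraries there held 17.2, 17.5, 17.9, 18.0 and 25.7 CPM in Akap11 -/- and 11.6, 12.2, 12.3, 14.2 and 16.5 CPM in Akap11 +/- (0.53 ± 0.21, adjusted p 0.238). Akap11 -/- against WT had 0, against 1.52% of all genes.

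The Akap11 -/- effect on the Grin genes was also compared between ages and between regions. Of 41 tests of the effect at 12 against 4 weeks, 0 were called by edgeR (3 at an unadjusted p under 0.05) and 0 of all genes (0%) were called. The smallest adjusted p was 0.636, for Grin1 in the nigra (0.71 ± 0.27). Of 14 tests of the effect in the striatum against the mean of the other regions, 0 were called (2 at an unadjusted p under 0.05), against 3.31% of all genes. Limma-voom in the comparison of regions and DESeq2 in that of ages called none either.

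The signalling partners of the receptor were followed through a list of 54 genes in 5 groups: scaffolds and anchors, kinases and other calcium effectors, co-agonist supply, glutamate release and uptake, and synaptic organisers. Akap11 -/- differed from WT in 7 tests of these genes, all lower and all in the striatum, and edgeR called 0 in the other 10 sets of region and age, where DESeq2 called 3 in the 4-week thalamus and 1 in the 12-week thalamus. At 4 weeks 3 of 53 genes (5.66%) were called, against 3.35% of all genes, and the list's median difference was -0.08 against -0.00 for all genes. The 3 are scaffolds. Homer1, which links metabotropic glutamate receptors to the NMDA receptor complex, fell by 0.74 on the log2 scale (SE 0.15, adjusted p 0.0126). Akap5, which anchors protein kinase A and calcineurin at the synapse, fell by 0.55 (SE 0.12, adjusted p 0.0182), and Shank3, a master scaffold of the postsynaptic density, fell by 0.64 (SE 0.16, adjusted p 0.0405).

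None of the 3 was called at 4 weeks without the libraries that carried excitatory neuron markers (Homer1 -0.43, Akap5 -0.30, Shank3 -0.40). Only libraries 12 and 932 of Akap11 -/- remain in that fit. With only the WT and Akap11 -/- libraries in the fit none was called either (adjusted p 0.0632 to 0.157), at differences of -0.74, -0.55 and -0.64. Homer1 kept its call in every fit that left out 1 library. Shank3 lost its call in 15 of 22 alternatives, with differences from -0.75 to -0.40. Akap5 also lost its call without library 914 of WT (-0.50, adjusted p 0.0574). Without the libraries in which few values are whole numbers, 11 list genes were called in the 4-week striatum, 7 lower and 4 higher. The 7 include the same 3 and Camk2b, Ppp3ca, Nlgn1 and Grm5. The 4 higher are Slc17a7, Dlgap1, Shank1 and Nsf, and Slc17a7, the vesicular glutamate transporter of cortical excitatory neurons, differed by 6.48 ± 1.76 in that fit. That fit keeps libraries 51, 161 and 163 of Akap11 -/- with their raised excitatory neuron markers and drops the WT library, number 92, that had them too, and the part of these markers was not tested.

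At 12 weeks, when excitatory neuron markers were low in every striatal library (scores of 0.466 to 0.979), 4 of 53 list genes (7.55%) were called, against 4.42% of all genes. The list's median difference was -0.03 and that of all genes 0.01. Camk2b, a subunit of the kinase CaMKII, fell by 0.36 (SE 0.05, adjusted p 7.82e-04), and Ppp3ca, the catalytic subunit of calcineurin, fell by 0.34 (SE 0.07, adjusted p 0.0123). Both kept their calls in 21 of 21 alternatives. Nlgn1, a synaptic adhesion protein that binds the receptor complex, fell by 0.28 (SE 0.07, adjusted p 0.0203), and lost its call when library 4 or 5 of Akap11 -/- or library 2 or 4 of WT was left out (adjusted p 0.0589 to 0.0642). Srr, which makes D-serine, fell by 0.18 (SE 0.05, adjusted p 0.0330) and lost its call in 10 of 21 alternatives. Against Akap11 +/-, a contrast that shares the Akap11 -/- libraries, the same 4 genes were called lower at 12 weeks (4.79% of all genes called). At 4 weeks 2 list genes were called in that contrast (3.88% of all genes), Homer1 lower (-0.77 ± 0.15, adjusted p 0.00957) and Dlgap1, a scaffold protein, higher (0.82 ± 0.22, adjusted p 0.0473), while Akap5 and Shank3 were not.

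With age, 10 to 18 of the list's 53 or 54 tested genes were called in each region in WT, mostly lower at 12 weeks. The counts were 15 in the prefrontal cortex (28.3% against 19.1% of all genes), 18 in the somatosensory cortex (34.0% against 27.1%), 10 in the hippocampus (18.5% against 17.7%), 14 in the striatum (26.4% against 18.5%), 17 in the thalamus (31.5% against 22.6%) and 17 in the nigra (31.5% against 18.6%). At most 2 of the called genes were higher at 12 weeks in any region. In the prefrontal cortex the called genes included Ephb2, Shank1 and Camk2b, which differed by -0.50, -0.46 and -0.43. The list's median difference was below that of all genes in 5 regions (from -0.19 to -0.13, against -0.02 to 0.02) and was 0.02 in the hippocampus.

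Finally, the genes whose WT pattern was most like that of each member were listed from 11621 genes with a mean of at least 5 CPM, by Pearson's r over the 12 means of region and age. These 12 points share tissue make-up and no p is given. For Grin1 they were Arf5 (r = 0.960), Hmgxb3 and Arhgef2. For Grin2a they were Camta2 (r = 0.967), Tacc2 and Zbtb18, and for Grin2b Ncoa6 (r = 0.979), Frmpd4 and Ppp3cb. For Grin2c, Grin2d, Grin3a and Grin3b they were led by Slc9a3r1, Psd2, Rac3 and Zfp618.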

How the data were processed

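RNA from 186 dissected samples was sequenced after preparation with a stranded mRNA kit from 200 ng of total RNA, per the labels' protocols. The authors deposited 1 table of estimated counts per gene symbol, made with Salmon on mm10 per the submitters' processing notes. The sources used here give no versions, annotation or use of strand. Of values above 0, 77.9% were not whole, so counts were rounded.

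Tests used edgeR 4.0.16 (quasi-likelihood, TMM, filterByExpr, R 4.3.3) on all genes per region and age (genotype), per region (age) or per age (WT regions), with Benjamini-Hochberg adjustment per comparison and a threshold of 0.05. Alternatives were relative log expression factors, no filter, DESeq2 1.42.0, limma 3.58.1, a replicate block, fewer groups and left-out libraries. Leaving out the libraries with few whole-number values was planned for age and chosen after seeing the data for the other comparisons, as was the long-transcript covariate. Ratios were tested by exact permutation (scipy 1.17.1). Gene lengths and positions come from GENCODE M21, to which 27068 of 28338 symbols matched. Replicate pairs differed beyond sampling noise (390 pairs). The fits were tested on simulated data.

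All 7 genes are named throughout. From the list of partners, every gene called in a comparison is named if 4 or fewer, otherwise the 4 with the smallest adjusted p, and others named were chosen after their values were seen. Part of the list's results is not reported here. The members and lists were chosen with earlier results of these data known.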

Additional observations from a re-analysis of the deposited data

Results flagged for a closer look

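Within groups of 5 or 6 libraries, 15 values stood apart from the rest of their group by Dixon's criterion, out of 252 combinations of gene and group. Chance sets apart about 1 in 20 groups. Grin1 was 930.3 CPM in library 941 of the 4-week Akap11 +/- prefrontal cortex (others 651 to 740.0), 759 CPM in library 931 of the 4-week Akap11 +/- striatum (others 902 to 911) and 1063 CPM in library 92 of the 4-week WT substantia nigra (others 401 to 563). Libraries 941 and 92 are among those in which few values are whole numbers.

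Grin2a was 464 CPM in library 2 of the 12-week WT hippocampus (others 256 to 317). Grin2b was 291 CPM in library 42 of the 4-week WT substantia nigra (others 31.3 to 120), which carried thalamic markers, and 61.8 CPM in library 1 of the 12-week Akap11 -/- nigra (others 73.2 to 76.6). Grin2c was 46.1 CPM in library 932 of the 4-week Akap11 -/- somatosensory cortex (others 55.9 to 58.8). In the hippocampus Grin2c was 88.2 CPM in library 23 of the 4-week WT group (others 46.6 to 59.6) and 49.1 CPM in library 1 of the 12-week Akap11 -/- group (others 37.8 to 40.2).

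Grin2d was low in 2 prefrontal libraries, at 13.4 CPM in library 161 of the 4-week Akap11 -/- group (others 15.8 to 16.6) and 8.81 CPM in library 4 of the 12-week Akap11 +/- group (others 10.3 to 10.9). It was high in 2 hippocampal libraries, at 25.7 CPM in library 163 of the 4-week Akap11 -/- group (others 17.2 to 18.0) and 14.4 CPM in library 5 of the 12-week Akap11 +/- group (others 7.27 to 8.28). Grin3a was 38.1 CPM in library 5 of the 12-week Akap11 -/- hippocampus (others 24.9 to 28.4), and Grin3b was 0.170 CPM in library 4 of the 12-week WT prefrontal cortex (others 0.0139 to 0.0503).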

How the results depend on the processing

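Counts of called Grin tests moved as follows. With DESeq2, 1 test was called in each genotype contrast, against 0 with edgeR. Without the libraries that carried markers of another region, 1 was called between Akap11 -/- and WT. It was Grin2c in the 4-week striatum, with only libraries 12 and 932 of Akap11 -/- left. Without those in which few values are whole numbers, 2 were called between Akap11 -/- and Akap11 +/-. Averaging 3 genotypes called 28 age differences, against 16 in WT. For the partner list, the 7 calls of Akap11 -/- against WT became 13 with DESeq2, 4 with only 2 genotypes in the fit, 15 without the libraries of few whole-number values and 4 without those of other regions' markers.

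Leaving out each library in turn gave 0 to 1 calls for Akap11 -/- against WT and against Akap11 +/-, 0 for Akap11 +/- against WT, 14 to 17 for age, 0 for both comparisons of effects, 22 to 28 and 35 to 36 for regions against the others at 4 and 12 weeks, 67 to 73 and 79 to 86 for pairs of regions, 5 to 13 for the partner list, 0 to 2 for the ratio by age and 0 for the ratio by genotype. The count of 13 was reached without library 12 of the 4-week Akap11 -/- striatum. No direction reversed in the fits compared with these. The causes of these changes were not tested.

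With the replicate number as a block (replicate block) at 12 weeks, 1 test was called between Akap11 -/- and Akap11 +/-: Grin2c in the striatum (-0.27 ± 0.07, edgeR adjusted p 0.0388). Libraries were also correlated by their deviations in log2 CPM from the group means. In these, same-numbered libraries of different genotypes in 1 region at 12 weeks correlated above 0.1 in 62 of 90 pairs. Same-numbered WT libraries of different regions did so in 53 of 75 pairs at 12 weeks and 31 of 76 at 4 weeks. The same number was the best match in 46, 44 and 22 of these pairs. The labels do not say that a number marks 1 animal across regions. Depth limits Grin3b above all, with few counts per library and no test in the prefrontal cortex.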
